A study of Mus musculus with 6 samples.

Results

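Cytosolic ribosomal protein genes encode the proteins of the ribosome that translates messenger RNA in the cytoplasm. Probe sets were taken whose single gene symbol starts with Rpl or Rps and a number, or is Rpsa, Rplp0, Rplp1 or Rplp2. Rps6k kinases and pseudogenes were left out. This gave 100 probe sets for 48 genes, of which 87 probe sets for 47 genes had a mean log2 value above 4, out of 15298 probe sets for 8754 named genes tested in all. Each gene was represented by its brightest probe set. The 47 genes comprised 25 of the large subunit and 22 of the small subunit.

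The tissue was the cochlear nucleus, the brainstem nucleus in which auditory nerve fibres end, from mice at postnatal day 21. One cochlea of each mouse had received tetrodotoxin (TTX), which stops nerve impulses by closing off sodium channels, for 24 h from an osmotic pump. The nucleus of the infused ear (ipsilateral, labelled as treated) and that of the other ear (contralateral, labelled as control) were each measured on 3 Affymetrix arrays. Every array held a pool of 10 to 12 mice, and no array came from untreated animals, so a difference cannot be assigned to one side. No strain, genotype or sex was given in the labels. Differences are ipsilateral minus contralateral on the log2 scale of the deposited GCRMA values, and a pair is the 2 arrays of one replicate number. That a number marks both sides of the same mice was inferred from the infusion of one ear and the pooling per replicate, and is not stated outright.

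Each ribosome carries a single copy of nearly every ribosomal protein beside its ribosomal RNA, and the large and the small subunit are assembled in the nucleolus from these parts. Ribosomal protein messenger RNAs usually open with a cytosine followed by an unbroken run of pyrimidines, the terminal oligopyrimidine start, through which mTORC1 signalling and the RNA-binding protein Larp1 regulate their translation. That control acts mainly on translation, which an array of messenger RNA levels does not measure. Neurons depend on ribosomes in their somata, and loss of afferent input is known to lower protein synthesis in neurons of the avian cochlear nucleus.

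Start sequences are shown first because sequence was not used to choose the members. RefSeq promoters (assembly GRCm38.p6, 250 bases before and 50 bases from the annotated start on) were held for 41 of the 47 genes, in 49 promoters. In 8 of the 49 (16.3%) the annotated first base was a cytosine that opened a run of 5 or more pyrimidines, against 823 of all 32851 promoters (2.51%). The 8 promoters, with that of Rps25 added because it had the largest difference among members, are given from 40 bases before to 15 bases from the start on, 5′ to 3′, with the pyrimidine run at the start in capitals.
Rpl14 (chr9:120571477-120571531, plus strand): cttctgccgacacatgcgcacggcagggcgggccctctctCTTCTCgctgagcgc
Rpl35 (chr2:39005117-39005171, minus strand): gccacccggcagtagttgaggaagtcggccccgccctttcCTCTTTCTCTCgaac
Rpl38 (chr11:114668540-114668594, plus strand): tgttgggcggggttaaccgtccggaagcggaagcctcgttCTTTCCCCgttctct
Rplp2 (chr7:141447611-141447665, plus strand): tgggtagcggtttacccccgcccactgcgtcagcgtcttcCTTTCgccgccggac
Rps6 (chr4:86857353-86857407, minus strand): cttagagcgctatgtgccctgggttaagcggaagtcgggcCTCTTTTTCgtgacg
Rps10 (chr17:27635230-27635284, minus strand): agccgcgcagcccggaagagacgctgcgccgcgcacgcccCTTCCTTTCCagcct
Rps18 (chr17:33955651-33955705, minus strand): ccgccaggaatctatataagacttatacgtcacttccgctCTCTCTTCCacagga
Rps27 (chr3:90213634-90213688, minus strand): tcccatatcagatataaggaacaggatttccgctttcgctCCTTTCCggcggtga
Rps25 (chr9:44407674-44407728, plus strand): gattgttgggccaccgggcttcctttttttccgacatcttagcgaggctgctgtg
The run was 11 bases long in Rpl35, the longest, and absent at the annotated start of Rps25. Upstream of that start a pyrimidine tract opened by a cytosine can be read in the Rps25 window. It opens farther than 10 bases from the start, so the count within 10 bases given next leaves it out. Annotated starts can be off by some bases, and a cytosine opening 5 or more pyrimidines lay within 10 bases either side of the start in 27 of the 49 promoters (55.1%), against 30.7% of all promoters. The hexamer CGGAAG, the core bound by ETS factors, was present on either strand of 29 of the 49 (59.2%) and of 16.9% of all promoters. It can be read in the window of Rps6 and, on the other strand, in that of Rps18. AAGATGGC, a core bound by YY1, was present on either strand in 4 (8.16%, against 2.75%), and TATAAA on either strand in 6 (12.2%, against 13.6%). CGGAAG and AAGATGGC can overlap by their shared AAG. These are matches of letters, and promoters are not independent samples.

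**Figure D1:**
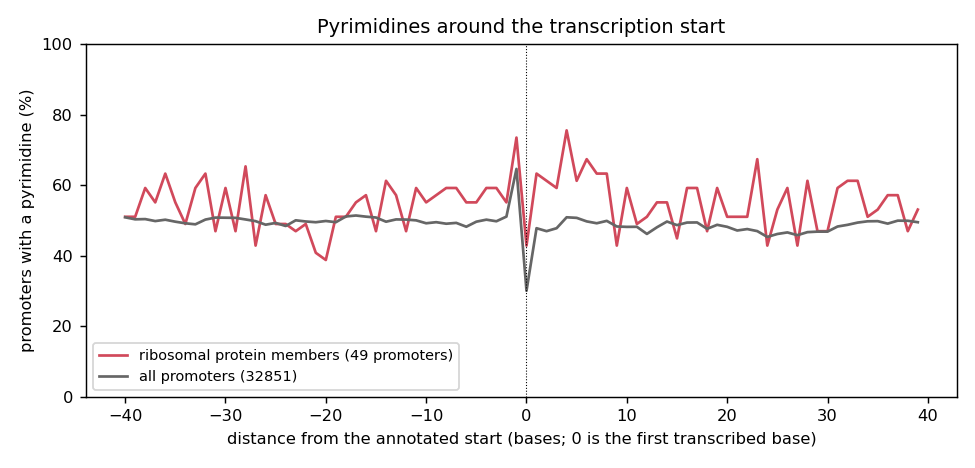
Percent of promoters with a pyrimidine (y axis) by distance in bases from the annotated start (x axis, 0 is the first transcribed base), for 49 promoters of ribosomal protein genes (red) and all 32851 promoters (grey). Just after the start the red line lies above the grey one, with 75.5% against 50.9% at a distance of 4 bases, and it is uneven elsewhere because it rests on 49 promoters.

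The levels of the ribosomal protein genes were nearly the same on both sides. The median difference was 0.031, with quartiles of -0.0043 and 0.052, against a median of -0.0029 over all 8754 named genes. On the infused side 35 of the 47 genes had a higher mean (74.5%, against 49.1% of all named genes) and 12 a lower one. No member passed the threshold. After Benjamini-Hochberg adjustment of the limma p-values none of the 15298 probe sets was under 0.05 (0%), and every member had an adjusted p of 1.00. At an unadjusted limma p under 0.05 there were 0 of 47 members, beside 213 of the 8754 named genes (2.43%) and 364 probe sets (2.38%). A plain equal-variance test put 1 of 47 members under 0.05, Rps18, beside 423 probe sets (2.77%), and 0 after adjustment.

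The small excess of higher values came mostly from the first pair. In pair 1 the infused side was higher for 37 of 47 members (78.7%, against 42.6% of all named genes), and the median difference was 0.058. In pair 2 29 members were higher (61.7%, against 55.1%), with a median of 0.016. In pair 3 24 were higher (51.1%, against 48.2%), with a median of 0.0030. The mean of the 47 genes was 10.65, 10.74 and 10.71 for contralateral arrays 1, 2 and 3, compared with 10.73, 10.78 and 10.70 for their ipsilateral partners. Contralateral array 1 was thus the lowest of the 6, and the other 5 arrays of both sides overlapped. Without contralateral replicate 1, 24 of 47 members were higher and the median was 0.0069. Without replicate 1 of both sides 26 were higher with a median of 0.0058, and without ipsilateral replicate 2 29 were higher with a median of 0.011. The direction of the median stayed the same under quantile normalization (0.038) and median centring (0.040). The median difference of all probe sets was -0.0055 in the main fit, 0.00087 under quantile normalization and 0.0026 under median centring. When the probe sets of each gene were averaged, 34 of 47 members were higher, with a median of 0.018 for all members and of 0.020 for the small subunit.

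**Figure D2:**
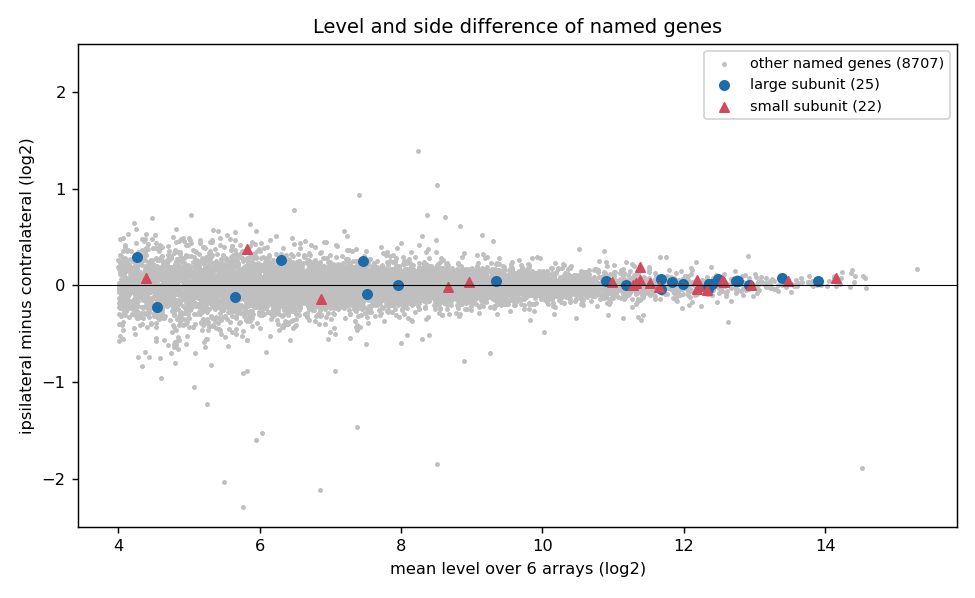
Mean level over 6 arrays (x axis, log2) and ipsilateral minus contralateral difference (y axis, log2) of 8754 named genes, with 25 large subunit genes as blue circles, 22 small subunit genes as red triangles and 8707 other genes in grey. The ribosomal protein genes with a mean above 10 lie close to 0, between -0.052 and 0.186, and dimmer members scatter like other dim genes.

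Most members were bright, and for these the arrays agreed closely. A mean above 10 was reached by 34 members, 17 of each subunit, and by 12.0% of all named genes. Within a side the median SD over 3 arrays was 0.075 contralaterally and 0.074 ipsilaterally for these 34 genes, and the median standard error of a difference was 0.093. Their differences ranged from -0.052 to 0.19 with a median of 0.029. The other 13 members, with a mean of 10 or less, ranged from -0.22 to 0.38 and had median SDs of 0.19 and 0.17. Values of different probe sets are not on a common scale of abundance, so a bright probe set does not show a more abundant messenger RNA.

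Large and small subunit genes did not part. The infused side was higher for 19 of 25 large subunit genes, whose median difference was 0.018 with a range from -0.22 to 0.30. It was higher for 16 of 22 small subunit genes, whose median was 0.035 with a range from -0.14 to 0.38. The difference between these medians was -0.017, with an SD of 0.018 over the 3 pairs, and its sign depended on the arrays used. It was 0.0082 without contralateral replicate 2, 0.0038 without contralateral replicate 3, 0.016 without ipsilateral replicate 2 and 0.026 without ipsilateral replicate 3. It was also above 0 with array weights (0.00057), with the choroid plexus level of each array as a covariate (0.022) and without probe sets of types that can share probes with other transcripts (0.018). The mean of the large subunit genes minus that of the small was -0.48, -0.49 and -0.46 contralaterally and -0.46, -0.49 and -0.50 ipsilaterally. These ranges overlapped. No test was made of a score over chosen genes.

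**Figure D3:**
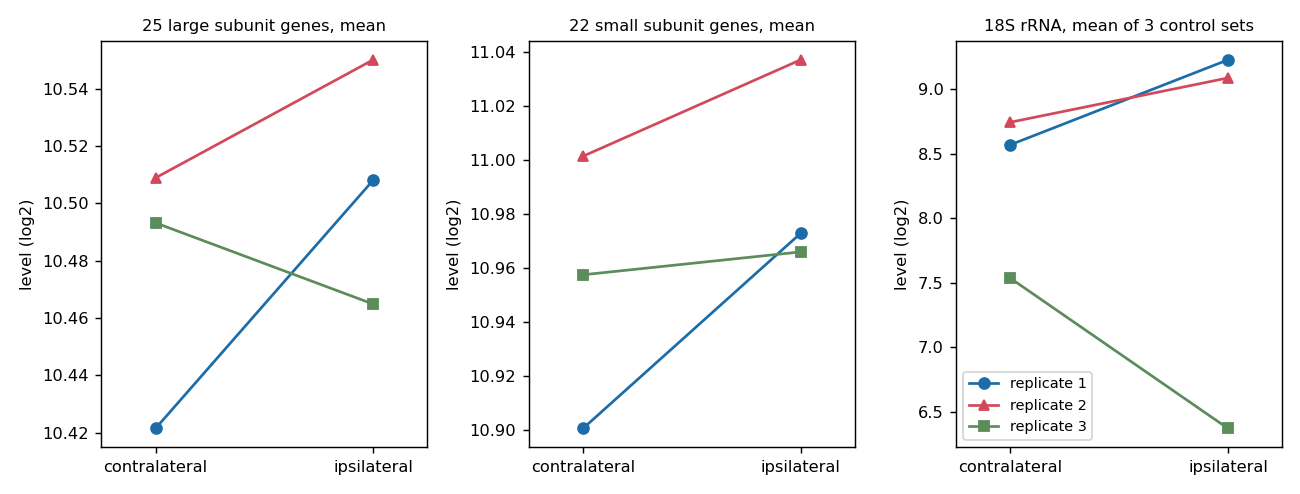
Mean log2 level (y axes, not starting at 0 and spanning different ranges) of 25 large subunit genes, 22 small subunit genes and 3 control probe sets of 18S ribosomal RNA on the contralateral and ipsilateral array of each replicate (x axis), joined by lines. The protein gene means span less than 0.2 in each panel, whereas 18S runs from 6.37 to 9.23 and goes up in replicates 1 and 2 and down in replicate 3.

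Rps18, a protein of the head of the small subunit, had the smallest p of the members. It measured 11.26, 11.32 and 11.29 in contralateral replicates 1, 2 and 3 and 11.46, 11.50 and 11.46 in the matching ipsilateral ones. All ipsilateral values lay above all contralateral ones, by a mean of 0.19 (SE 0.082), or 1.14-fold (limma unadjusted p = 0.0569, adjusted p = 1.00). The 2 other tested probe sets of Rps18 did not show a difference of that size. They differed by 0.068 and 0.057, mostly from pair 1 (0.19 and 0.14), and their sides overlapped. The difference of the first probe set ranged from 0.17 to 0.20 when any array or pair was left out.

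Rps25, a small subunit protein needed for translation from several viral internal entry sites, had the largest difference. Its probe set measured 5.70, 5.82 and 5.37 contralaterally and 6.17, 6.16 and 5.69 ipsilaterally. The sides overlapped, because both arrays of replicate 3 were low, but within each pair the infused side was higher by 0.47, 0.35 and 0.32. The mean difference was 0.38 (SE 0.18), or 1.30-fold (limma unadjusted p = 0.0698). With the replicate number as a block the unadjusted limma p was 0.00773 and the adjusted p 0.991, and Rps25 was then the 1 member of 47 under 0.05 (2.13%), beside 342 of 8754 named genes (3.91%) and 569 probe sets (3.72%). The difference was 0.25 without contralateral replicate 3 and 0.54 without ipsilateral replicate 3. No second probe set of Rps25 was tested.

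The sides did not overlap in 1 more member, Rpl11, which with Rpl5 and 5S ribosomal RNA can bind Mdm2 and so stabilise p53. It measured 11.77, 11.83 and 11.84 contralaterally and 11.84, 11.84 and 11.85 ipsilaterally, a difference of 0.031 that was smaller than its standard error of 0.082. The lowest ipsilateral value lay above the highest contralateral one only in the fourth decimal. Thus 2 of 47 members lay wholly above the contralateral values (4.26%, against 2.74% of all named genes) and 0 wholly below (against 3.88%). By sign alone 13 members were higher in 3 of 3 pairs (27.7%, against 11.1%), and 2 were lower in 3 of 3, Rpl7l1 and Rps4x (4.26%, against 13.8%).

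The other members with the smallest p of their subunit and the same sign in every pair differed little. Among large subunit genes these were Rpl35 (0.064), Rpl37a (0.043), Rpl10a (0.017) and Rpl7l1 (-0.091). Rpl37a turned to -0.00033 without contralateral replicate 1, and Rpl10a turned to -0.0068 in the same fit, to -0.020 without ipsilateral replicate 3 and to -0.021 with the choroid plexus covariate. Among small subunit genes they were Rps29 (0.071), Rps26 (0.039) and Rps27 (0.075), of which Rps27 turned to -0.019 without ipsilateral replicate 3 and to -0.0095 with that covariate. Rps29 was also the brightest small subunit member, at 14.07, 14.05 and 14.24 contralaterally and 14.11, 14.19 and 14.28 ipsilaterally, so that the sides overlapped. Rpl13a, the brightest of the large subunit, measured 13.86, 13.93 and 13.82 contralaterally and 13.97, 13.95 and 13.81 ipsilaterally, and here too the sides overlapped.

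**Figure D4:**
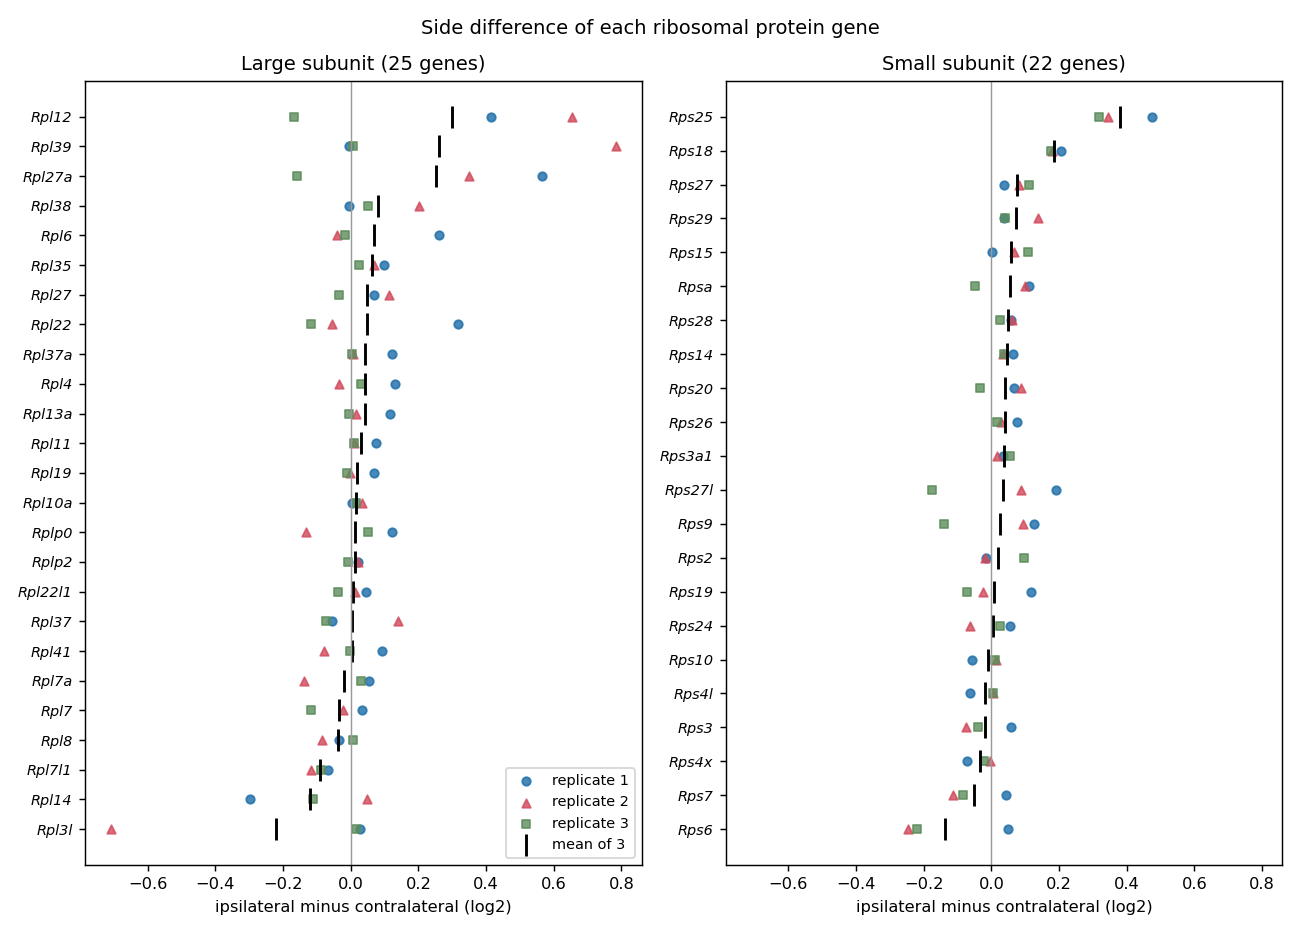
Ipsilateral minus contralateral log2 difference (x axis) of each ribosomal protein gene (y axis) in replicates 1 (blue circles), 2 (red triangles) and 3 (green squares), with the mean of the 3 as a black bar, for 25 large subunit genes on the left and 22 small subunit genes on the right. For Rps25 and Rps18 all 3 points lie to the right of 0, at 0.18 or more, while Rpl12, Rpl39, Rpl27a and Rpl3l spread widely between replicates.

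Large subunit genes with the widest mean differences disagreed between pairs. Rpl12, at the base of the ribosomal stalk, differed by 0.41, 0.65 and -0.17 in pairs 1, 2 and 3, Rpl27a by 0.56, 0.35 and -0.16, and Rpl39, which lines the exit tunnel, by -0.0067, 0.79 and 0.0080. For Rpl12 and Rpl27a the third pair thus ran against the others, and for Rpl39 the mean came from ipsilateral array 2. Rpl12 had the dimmest probe set of the members, at 4.05, 3.90 and 4.37 contralaterally and 4.47, 4.56 and 4.20 ipsilaterally. It and Rps27, at a mean of 4.40, were just above the minimum of 4, and Rpl39l, a testis-enriched copy of Rpl39, was below it at a mean of 2.54 and was not tested.

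The stalk proteins, which recruit translation factors to the ribosome, did not differ beyond their spread. Rplp0 measured 12.15, 12.40 and 12.48 contralaterally and 12.28, 12.27 and 12.53 ipsilaterally. Rplp2 measured 12.30, 12.40 and 12.46 contralaterally and 12.33, 12.42 and 12.46 ipsilaterally. In both genes the values of the sides interleaved, with differences of 0.014 and 0.012.

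Among small subunit proteins with other known roles the differences were no larger than their standard errors. Rps6, the substrate of the S6 kinases, measured 6.78, 7.17 and 6.84 contralaterally and 6.83, 6.93 and 6.62 ipsilaterally, a difference of -0.14 (SE 0.14) that was -0.018 without contralateral replicate 2. Rpsa, also known as the laminin receptor precursor, differed by 0.054 (SE 0.13), and Rps19, a gene mutated in Diamond-Blackfan anaemia, by 0.0070 (SE 0.098).

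Rpl41, one of the shortest proteins of the large subunit, differed by 0.0030 at its brightest probe set and by -0.068, -0.094 and -0.37 at its other 3. These 3 were lower in every pair. At the one with -0.094 all ipsilateral values lay below all contralateral ones, while the sides overlapped at the others and the -0.37 came mostly from ipsilateral array 2 (-0.97 in pair 2).

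The remaining large subunit members lay between -0.12 and 0.081. Rpl38, whose loss alters translation of Hox messenger RNAs in mouse embryos, differed by 0.081 and Rpl14 by -0.12. Rpl27 (0.049), Rpl4 (0.042) and Rpl37 (0.0032) were higher and Rpl7a (-0.019) and Rpl8 (-0.037) lower by less than their standard errors. Rpl6 differed by 0.26 in pair 1 and by -0.040 and -0.018 in pairs 2 and 3.

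The remaining small subunit members lay closer together. Rps14, Rps20 and Rps3a1 differed by 0.046, 0.041 and 0.036, and Rps9, Rps2 and Rps24 by 0.026, 0.020 and 0.0055. Rps10 (-0.012) and Rps3 (-0.019) were on the other side of 0. Each of these differences was smaller than its standard error, the smallest of which was 0.087 for Rps20.

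The genes whose annotated start opened a pyrimidine run were found on both sides of 0. Rps18 (0.19), Rpl38 (0.081), Rps27 (0.075), Rpl35 (0.064) and Rplp2 (0.012) were higher and Rps10 (-0.012), Rpl14 (-0.12) and Rps6 (-0.14) lower. The longest run at an annotated start, that of Rpl35, and the shortest, that of Rplp2, both belonged to genes with small positive differences. These lengths depend on the annotated base, which can be off. Runs opening within 10 bases of the start reached 18 bases in Rpl35, 9 in Rplp2 and 20 in Rpl27a, which is not among the genes above. Whether a run goes with the difference was not tested. Rps25, with no run at its annotated start but a pyrimidine tract upstream of it, had the largest difference of the members.

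Several ribosomal proteins have a close copy encoded by another gene, and 5 such copies were members. Rpl22l1, the copy of Rpl22, measured 11.06, 11.07 and 11.40 contralaterally and 11.10, 11.08 and 11.36 ipsilaterally, and Rpl22 itself differed by 0.048. Rpl7l1, a relative of Rpl7, measured 7.45, 7.55 and 7.69 contralaterally and 7.38, 7.44 and 7.60 ipsilaterally, whereas its other probe set differed by 0.038 and Rpl7 by -0.035. Rps27l, a p53-inducible copy of Rps27, differed by 0.19, 0.087 and -0.18 in the 3 pairs. Rps4l differed by -0.019 and Rps4x by -0.033. Rpl3l, the copy of Rpl3 that is typical of muscle, was dim, and its difference of -0.22 came from contralateral array 2 (5.18, against 4.35 to 4.48 on the other 5 arrays) and turned to 0.038 without it. Without the 5 copies 33 of 42 members were higher, with a median of 0.038.

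The members varied more with the replicate number than with the side, as most genes did. In 42 of 47 the range of the 3 replicate means exceeded the difference between the sides (89.4%, against 84.0% of all named genes, since a range of 3 means tends to exceed a difference of 2). The replicate number took a median of 70.8% of each member's sum of squares over 6 arrays and the side 8.27%, against 51.4% and 9.0% over all named genes. The replicate number has 2 of the 5 degrees of freedom and the side 1. Between the mean of the 2 arrays of replicate 3 and that of the other 4, 27 members differed by more than 0.1 (57.4%, against 61.3% of all named genes), so this shift was not more frequent among the members. Between the sides, 3 arrays against 3, 8 members differed by more than 0.1 (17.0%, against 39.2%), and among genes with a mean above 10 1 of 34 members did (2.94%, against 20.1%). Rps28 measured 13.33, 13.38 and 13.61 contralaterally and 13.39, 13.45 and 13.64 ipsilaterally. Rps7 measured 12.21, 12.30 and 12.55 contralaterally and 12.25, 12.18 and 12.46 ipsilaterally. Both genes were highest in replicate 3 on either side. Rpl19 measured 12.39, 12.45 and 12.20 contralaterally and 12.46, 12.45 and 12.19 ipsilaterally. Rps15 measured 12.25, 12.29 and 11.94 contralaterally and 12.25, 12.36 and 12.05 ipsilaterally. These were lowest in replicate 3 on either side.

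**Figure D5:**
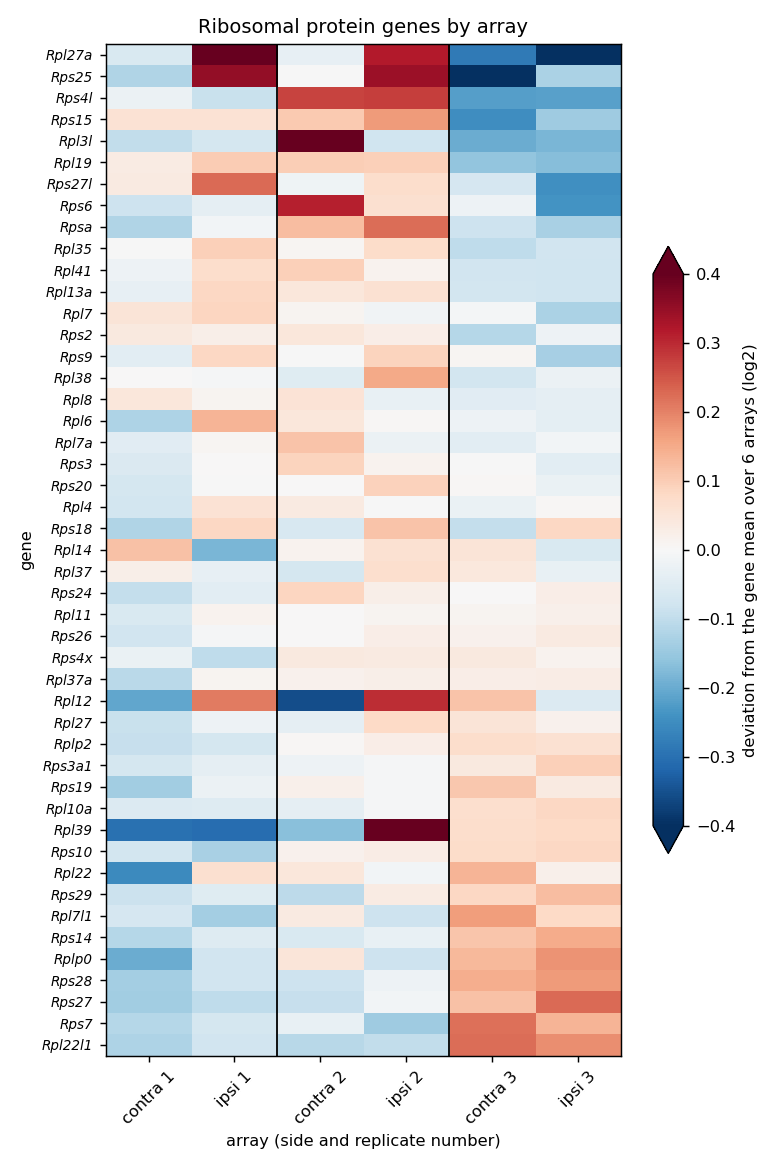
Deviation of each ribosomal protein gene (rows) from its own mean over 6 arrays, in log2 (colour, red above and blue below, values beyond 0.4 drawn at the end of the scale), on the arrays of each replicate (columns, contralateral then ipsilateral), with genes ordered by the mean of replicate 3 minus that of the others. The 2 columns of replicate 3 resemble each other, low for genes at the top such as Rps15 and Rpl19 and high for those at the bottom such as Rps7, Rps28 and Rpl22l1.

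Control probe sets differed in replicate 3 too. The hybridisation control bioB had a mean of 8.23 and 8.01 on the arrays of replicate 3 and of 9.27 to 9.52 on the other 4, and bioC one of 9.71 and 9.51 against 9.06 to 9.36. The 3′ minus 5′ signal of beta-actin, a sign of RNA quality, ranged from 0.93 to 1.24 contralaterally and from 1.06 to 1.30 ipsilaterally. Within pairs 1, 2 and 3 it differed between the sides by -0.16, 0.37 and 0.0050. That of Gapdh differed by -0.11, 0.38 and -0.035, so both were higher on the infused side in pair 2. The part of these values in the pattern of the members was not tested.

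Probes for 18S ribosomal RNA, the RNA of the small subunit, are among the array's controls and were kept out of the fit. Their mean was 8.57, 8.75 and 7.54 contralaterally and 9.23, 9.09 and 6.37 ipsilaterally. The infused side was thus higher by 0.66 and 0.34 in pairs 1 and 2 and differed by -1.16 in pair 3, and the same signs held for each of the 3 probe sets. The ribosomal RNA lacks a poly(A) tail, so its signal in labelled target need not follow its amount in the tissue. The pair medians of the small subunit protein genes were 0.056, 0.030 and 0.013, above 0 in pair 3 as well.

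Most probe sets of these genes can share probes with other transcripts. Of the 47 representative probe sets 16 had an identifier ending in _x_at and 17 one in _a_at, types that can share probes within or between genes, in all 70.2%, against 31.2% over all named genes for such types. Without these types 18 genes were left, 10 of them higher, with a median of 0.016. Among the 19 members with several tested probe sets, all were higher in 9, all were lower in 1 (Rps7), and the signs were mixed in 9. Probe sets of one gene read the same arrays, so their signs are not independent, and these counts have no share over all genes beside them. A further 92 tested probe sets pair a ribosomal protein symbol with symbols of other genes, often pseudogenes, and name no single gene. Of these 63 were higher and 29 lower, with a median of 0.034, where 49.1% of all named genes were higher. None of the 92 had an unadjusted limma p under 0.05, beside 2.38% of all tested probe sets.

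Other genes of ribosome production and translation were taken from lists of known genes. Mitochondrial ribosomal proteins, which belong to the separate ribosome of the mitochondrion, were higher in 25 of 74 cases, with a median of -0.036 and pair medians of 0.030, -0.11 and -0.030. Without replicate 2 of both sides their median was 0.0062, without replicate 1 of both sides it was -0.072, and without contralateral replicate 2 it was -0.014. Their smallest p was that of Mrpl21, at 7.69 ± 0.091 contralaterally and 7.41 ± 0.14 ipsilaterally (SD, n = 3 each, limma unadjusted p = 0.0421, adjusted p = 1.00), followed by Mrps18a (-0.20) and Mrpl36 (-0.21). The difference between the cytosolic and the mitochondrial list was not tested.

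Other messenger RNAs known for a terminal oligopyrimidine start were higher in 11 of 13 cases, with a median of 0.058 that lay between 0.045 and 0.072 when any array or pair was left out but was 0.026 when the probe sets of each gene were averaged. The 3 with the smallest p were Btf3 (0.17), a subunit of the nascent polypeptide complex, and the initiation factor subunits Eif3e (0.13) and Eif3l (0.11). Of the elongation factors 3 of 5 were higher, with a median of 0.0048 that ranged from -0.036 to 0.041 over left-out arrays or pairs. Eef2 differed by 0.13, Eif5a by -0.077 and Eef1a1 by 0.037. Fau, which encodes another small subunit protein, differed by 0.053. None of these had an unadjusted limma p under 0.05.

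RNA polymerase I and its factors, which make the ribosomal RNA precursor, were higher in 6 of 13 cases, with a median of -0.035. Its largest subunit gene Polr1a measured 5.90 ± 0.12 contralaterally and 5.51 ± 0.29 ipsilaterally (SD, n = 3 each, limma unadjusted p = 0.0430, adjusted p = 1.00), Polr1e differed by -0.25 and the initiation factor gene Rrn3 by 0.16. The median lay between -0.048 and 0.028 when any array or pair was left out, above 0 only without replicate 1 of both sides. It was -0.091 when the probe sets of each gene were averaged and -0.0057 over the 6 genes left by a minimum of 6. Of the ribosome assembly genes 23 of 45 were higher, with a median of 0.011 that took either sign when an array or pair was left out, such as -0.028 without the first pair and -0.015 without ipsilateral replicate 1. The 3 of smallest p were Nop16 (0.22), Ltv1 (-0.23), a factor of small subunit maturation, and Rrp12 (-0.36). At an unadjusted limma p under 0.05 there were 0 of 45, beside 2.43% of all named genes.

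Of 18 listed S6 kinases and genes by which mTORC1 controls translation 11 were tested. Of these 6 were higher, with a median of 0.0080 that took either sign between -0.056 and 0.081 over left-out arrays or pairs. The mTORC1 inhibitor gene Ddit4 measured 7.55 ± 0.51 contralaterally and 8.94 ± 0.17 ipsilaterally (SD, n = 3 each, limma unadjusted p = 0.000869, adjusted p = 1.00). It was the 1 of 11 with an unadjusted limma p under 0.05, beside 2.43% of all named genes. Its ipsilateral values lay wholly above the contralateral ones, as in 2.74% of all named genes. The kinase gene Rps6ka3 differed by 0.16 and the cap-binding protein gene Eif4e by -0.19. Mtor (0.0080) and Larp1 (-0.044) stayed within their spread.

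Markers of the cell types of the tissue varied over arrays and sides as follows. Neuron markers were all bright enough to test, 12 of 12, with means from 10.70 to 10.92 on the contralateral and from 10.69 to 11.03 on the ipsilateral arrays. Choroid plexus markers, 7 of 11 tested, had means of 7.82 to 8.51 contralaterally and of 9.45, 5.18 and 5.36 on ipsilateral arrays 1, 2 and 3, so they were low on the last 2. With their mean as a covariate 26 of 47 ribosomal protein genes were higher, with a median of 0.017. Microglia markers were higher in 8 of 8 cases, with means of 6.79 to 7.02 and 7.07 to 7.15, and oligodendrocyte markers in 7 of 7, with means of 12.89 to 13.04 and 13.01 to 13.11. Of all named genes 49.1% were higher. In pairs 1, 2 and 3 the microglia markers were higher in 7, 8 and 4 cases and the oligodendrocyte markers in 5, 7 and 3. The pair 3 medians were 0.040 and -0.0077. At an unadjusted limma p under 0.05 there were 3 of the 8 microglia markers, C1qb, Cd68 and Aif1, beside 2.43% of all named genes. No marker of the other cell types was under 0.05, and no marker passed after adjustment. Astrocyte markers were higher in 7 of 8, endothelial markers in 3 of 8 and red blood cell markers in 0 of 2. In bulk tissue fewer cells of a type and less RNA per cell cannot be told apart, and apart from the choroid plexus covariate the part of these markers in the ribosomal protein values was not tested.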

How the data were processed

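Total RNA of 6 pools, 3 per side, was hybridised to 1 Affymetrix array each. The authors deposited GCRMA values per probe set, per the submitters' processing notes, whose scale is log2 as read from the range of the deposited values. GCRMA's version was not given in the sources used here. GCRMA corrects background by probe sequence and normalizes between arrays, so dim differences are uncertain and a change common to most genes is removed.

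Side and replicate number of each array were taken from its description. Of 22690 probe sets 20393 had 1 symbol in the platform's annotation, 691 several and 1606 none. Of those with 1 symbol 20364 matched a RefSeq gene by Entrez identifier. The 64 control probe sets and those with a mean of 4 or less were left out. limma 3.58.1 in R 4.3.3 (lmFit, eBayes) compared the sides over 6 arrays, with Benjamini-Hochberg adjustment over 15298 probe sets and a threshold of 0.05. The smallest exact permutation p for 3 against 3 arrays is 0.1, and the number of arrays limits the precision. Simulated data had the real means and spreads of the 15298 probe sets. On these the fit recovered 68.6% of 200 probe sets changed by 1, 94.2% changed by 2, and 0% changed by 0.5 or 0.2. Values were drawn independently, with no effect shared by the arrays of a replicate, so recovery in the real data can differ.

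Members and lists were chosen with earlier results of these data known, so lists are described by counts and medians with no test. Named genes were up to 5 per subunit of smallest p with the same sign in 3 of 3 pairs, the brightest and dimmest per subunit, members next to the minimum, fixed genes of known role or with close copies, and up to 3 per other list. Rplp1, Rps27a, Rpl5, Rpl36a, Rpl36al, Rpl3 and Rps19bp1 were also fixed but had no tested probe set of a single symbol. Further genes named for the replicate pattern or a wide spread (Rpl27a, Rpl39, Rps28, Rps7, Rpl19 and Rps15), and Mtor and Larp1, were chosen after their values were seen, and the remaining members are given by their differences. The pairing by number was inferred from the series' design. Deviations of same-numbered arrays correlated at 0.091, 0.044 and 0.57 and those of other combinations between -0.37 and 0.30, with contralateral 1 and ipsilateral 2 at 0.30. Same-numbered arrays thus resembled each other above other combinations only in replicate 3. The hybridisation control bioB, which does not come from the mice, was also low on both arrays of replicate 3 (8.23 and 8.01). Whether the resemblance came from shared mice or shared processing was not tested. Alternatives were the replicate number as a block, no minimum, a minimum of 6, quantile normalization, median centring, trended and robust variance, array weights, averaging the probe sets of each gene, leaving out probe set types that can share probes, a choroid plexus covariate, a plain equal-variance test, and leaving out each array or pair. Promoter sequences are from RefSeq, assembly GRCm38.p6.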

Additional observations from a re-analysis of the deposited data

Results flagged for a closer look

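Control probe sets of the added bacterial transcript phe, which were not part of the comparison, had a mean log2 value of 14.73 on ipsilateral array 2 and of 2.75 to 3.04 on the other 5 arrays, above every contralateral array. The dap controls were bright on contralateral arrays 1 and 3 (15.24 and 15.23), and the lys controls on contralateral array 2 and ipsilateral arrays 1 and 3 (14.40, 14.24 and 14.54). Each array thus carried 1 of these transcripts at a high level. High dap was seen only on contralateral arrays, high phe only on 1 ipsilateral array, and high lys on both sides.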

How the results depend on the processing

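The count of probe sets past the adjusted threshold was 0 in every alternative except those that left out ipsilateral replicate 1 or replicate 1 of both sides, and it ranged from 0 to 5 over arrays or pairs left out. The count of members with an unadjusted p under 0.05 was 1 with no minimum, a minimum of 6, quantile normalization and trended and robust variance (Rps18 each time). It was also 1 with the plain equal-variance test (Rps18) and the replicate block (Rps25), and 2 with array weights (both). Over arrays or pairs left out the count ranged from 0 to 3. The 3 were Rpl12, Rpl27a and Rps25, without ipsilateral replicate 3 or replicate 3 of both sides. The share of all genes or probe sets under 0.05 was taken only for the main fit, the replicate block and the plain test. Counts in the other settings have no such share beside them and are no result about the members. The count of higher members ranged from 24 to 37 over arrays or pairs left out, and was 10 of 18 without probe set types that can share probes and 98 of 139 features with probe sets of several symbols, which raises the number counted. Over arrays or pairs left out the small subunit median ranged from 0.0069 to 0.048, the large subunit median from -0.0023 to 0.045 and their difference from -0.026 to 0.026. Without the shared probe set types the small subunit median was -0.00013 and the difference of medians 0.018, and with the choroid plexus covariate they were 0.00041 and 0.022. Of 443 values of 23 named members over 20 alternatives 44, in 13 members, had the sign opposite to the reported one, among them Rplp0 (-0.042), Rplp2 (-0.036), Rpl22l1 (-0.050) and Rps19 (-0.017) with the choroid plexus covariate, and 14 moved by more than the spread between pairs. In genes named for a steady sign 6 values turned: Rpl10a (-0.021) and Rps27 (-0.0095) with the choroid plexus covariate, Rpl37a (-0.00033) and Rpl10a (-0.0068) without contralateral replicate 1, and Rpl10a (-0.020) and Rps27 (-0.019) without ipsilateral replicate 3. Over arrays or pairs left out Rpl37a reached 0.067, Rpl10a 0.054 and Rps27 0.15. The cause was not tested. Adding probe sets of several symbols, leaving out the close copies and a minimum of 10 were chosen after seeing the data. The replicate block changed no call after adjustment.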
